A study of Mus musculus with 288 samples.

Results

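Arntl and Clock encode the activator pair of the mammalian circadian clock, and their transcripts were followed here through 2 days of constant darkness in 12 mouse tissues. They were taken as the probe sets annotated to these single gene symbols, which gave 2 genes of the 19938 measured, each with 1 probe set. Arntl (probe set 10556463) lies on mouse chromosome 7 from 113178471 to 113314126, and Clock (probe set 10530733) on chromosome 5 from 76209868 to 76305603, in build GRCm38.p6 of RefSeq.

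The mice were of the C57/BL6 strain, kept for 1 week in 12 h of light and 12 h of darkness and then in constant darkness, with no other treatment named. The tissues were liver, kidney, lung, heart, aorta and adrenal gland, skeletal muscle, both brown and white adipose, and from the brain the hypothalamus, the brainstem and the cerebellum. Each has 24 Affymetrix arrays at 2 h steps of circadian time, from CT18 to CT64, where CT0 is the start of the subjective day and CT12 that of the subjective night. An array holds the pooled RNA of 3 mice, so the spread between single animals was not measured, and there is no second array at any time. A p-value here rests on how far the 24 pools of a tissue scatter about the fitted curve. Age and sex are not given in the sources used here.

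BMAL1, the product of Arntl, and CLOCK bind DNA as a heterodimer at E-boxes and switch on the Per and Cry genes, whose proteins later block that pair. They also switch on the nuclear receptors Nr1d1 and Nr1d2, known as REV-ERB alpha and beta, which repress Arntl through ROR elements, the sites at which the ROR receptors activate it. Loss of BMAL1 alone stops behavioural rhythms of mice in darkness, while NPAS2 can stand in for CLOCK in some tissues. The published view is that the Arntl transcript cycles strongly and the Clock transcript weakly, so the comparisons ask how large the wave of each is, when it peaks and what shape it has in each tissue.

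The promoter windows are shown because Arntl is known to be controlled by the REV-ERB and ROR receptors at its start, and Clock moved close in time to it. RefSeq windows run from 250 bases before to 50 after an annotated start. Both members matched, Arntl with 2 windows and Clock with 3. All of them lie inside the gene spans given above, from 113207215 to 113207560 for Arntl and from 76303453 to 76305042 for Clock. The outermost start of each span was therefore not searched. Capitals mark matches to a long form of the ROR element in the second Arntl window (chr7:113207261-113207560, plus strand). The first Clock window (chr5:76304743-76305042, minus strand) is shown beside it and has no capitals.

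Arntl promoter: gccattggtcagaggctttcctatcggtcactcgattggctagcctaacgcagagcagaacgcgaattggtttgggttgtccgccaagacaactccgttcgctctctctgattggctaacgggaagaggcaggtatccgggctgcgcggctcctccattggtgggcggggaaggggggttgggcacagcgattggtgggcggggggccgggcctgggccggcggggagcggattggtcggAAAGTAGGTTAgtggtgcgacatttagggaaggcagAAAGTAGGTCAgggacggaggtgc
Clock promoter: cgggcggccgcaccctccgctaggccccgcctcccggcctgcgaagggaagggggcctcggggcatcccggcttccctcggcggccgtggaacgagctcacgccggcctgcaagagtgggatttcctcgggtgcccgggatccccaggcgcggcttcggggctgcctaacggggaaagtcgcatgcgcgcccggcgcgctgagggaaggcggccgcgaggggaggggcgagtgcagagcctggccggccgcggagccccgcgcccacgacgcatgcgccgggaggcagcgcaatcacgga

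In the Arntl window AAAGTAGGTTA begins at -10 and AAAGTAGGTCA at 27, with the annotated start counted as 1 and both on the gene's own strand. The second of them ends in the short core AGGTCA. On either strand, the long form occurs in 20 of 32817 windows of the same length (0.0609%), and the core in 16.3%. Of the 19 genes that hold the long form, Arntl alone had it at more than 1 place in a window. The letters searched were modelled on the elements known in Arntl, so their presence there is no finding. In the 3 Clock windows the long form was not matched, and the core was found once, on the opposite strand at -119 in the third window. The E-box CACGTG (7.15% of all windows), the D-box TTATGTAA (0.935%) and the cyclic AMP element TGACGTCA (1.79%) were not matched in any window of either gene.

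Markers of each labelled tissue were highest in that tissue. Brown adipocyte markers averaged 11.23 (log2 intensity) in brown adipose and 10.83 in aorta. Aorta also had adipocyte markers at 11.51 (12.36 in white adipose) and cardiomyocyte markers at 10.84 (12.08 in heart, 9.66 in lung). No fit with the means of these lists was run. By marker lists or correlation, 24 arrays in 9 tissues stood apart from the others of their tissue. The 6 of skeletal muscle carried lymphocyte or hepatocyte markers and were those at CT20, CT22, CT24, CT42, CT44 and CT46, and in each of them Arntl was above its median of that tissue. The mean of 7 lymphocyte markers (8 listed) there had a median of 5.59 and reached 7.55 (log2 intensity), and that of 8 hepatocyte markers had a median of 6.53 and reached 8.29. Skeletal muscle markers ran from 6.62 to 11.82 among the brown adipose arrays and from 6.48 to 10.31 among those of aorta. Hepatocyte markers ran from 6.88 to 12.76 in adrenal gland, from 7.24 to 11.22 in aorta, from 6.04 to 11.27 in heart and from 7.81 to 11.11 in white adipose. The 24 h folds of these tissues are therefore also given without such arrays or with the marker mean in the fit. Cerebellar markers ran from 7.37 to 9.38 among the brainstem arrays. No fit with their mean was run, so their part in the brainstem waves and peak times was not tested. As these are bulk samples, fewer cells of a type and less RNA per cell cannot be told apart.

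Arntl cycled in every tissue, rising through the subjective night, staying high around its end, and reaching its lowest values around the end of the subjective day. The fitted peak-to-trough fold was between 7.67 and 12.1 in 8 of the tissues, 3.95 in skeletal muscle, and between 1.23 and 1.53 in the 3 brain tissues. In those 8 tissues the lowest Arntl array lay between 47 (aorta) and 59.9 (liver) in linear intensity, below every array median (95.2 to 106.6). Whether background limits these low values, and so the size of the folds, was not tested. The wave passed the moderated F test of limma (Benjamini-Hochberg adjusted p under 0.05 over all genes) in 12 of 12 tissues. The same test called 26.8% of all genes in liver, 25.8% in kidney, 20.9% in lung, 16.5% in brown adipose, 8.64% in heart and 5.89% in adrenal gland. It called 5.49% in cerebellum, 5.12% in skeletal muscle, 5.09% in aorta, 4.85% in white adipose, 4.78% in brainstem and 1.8% in hypothalamus.

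**Figure D1:**
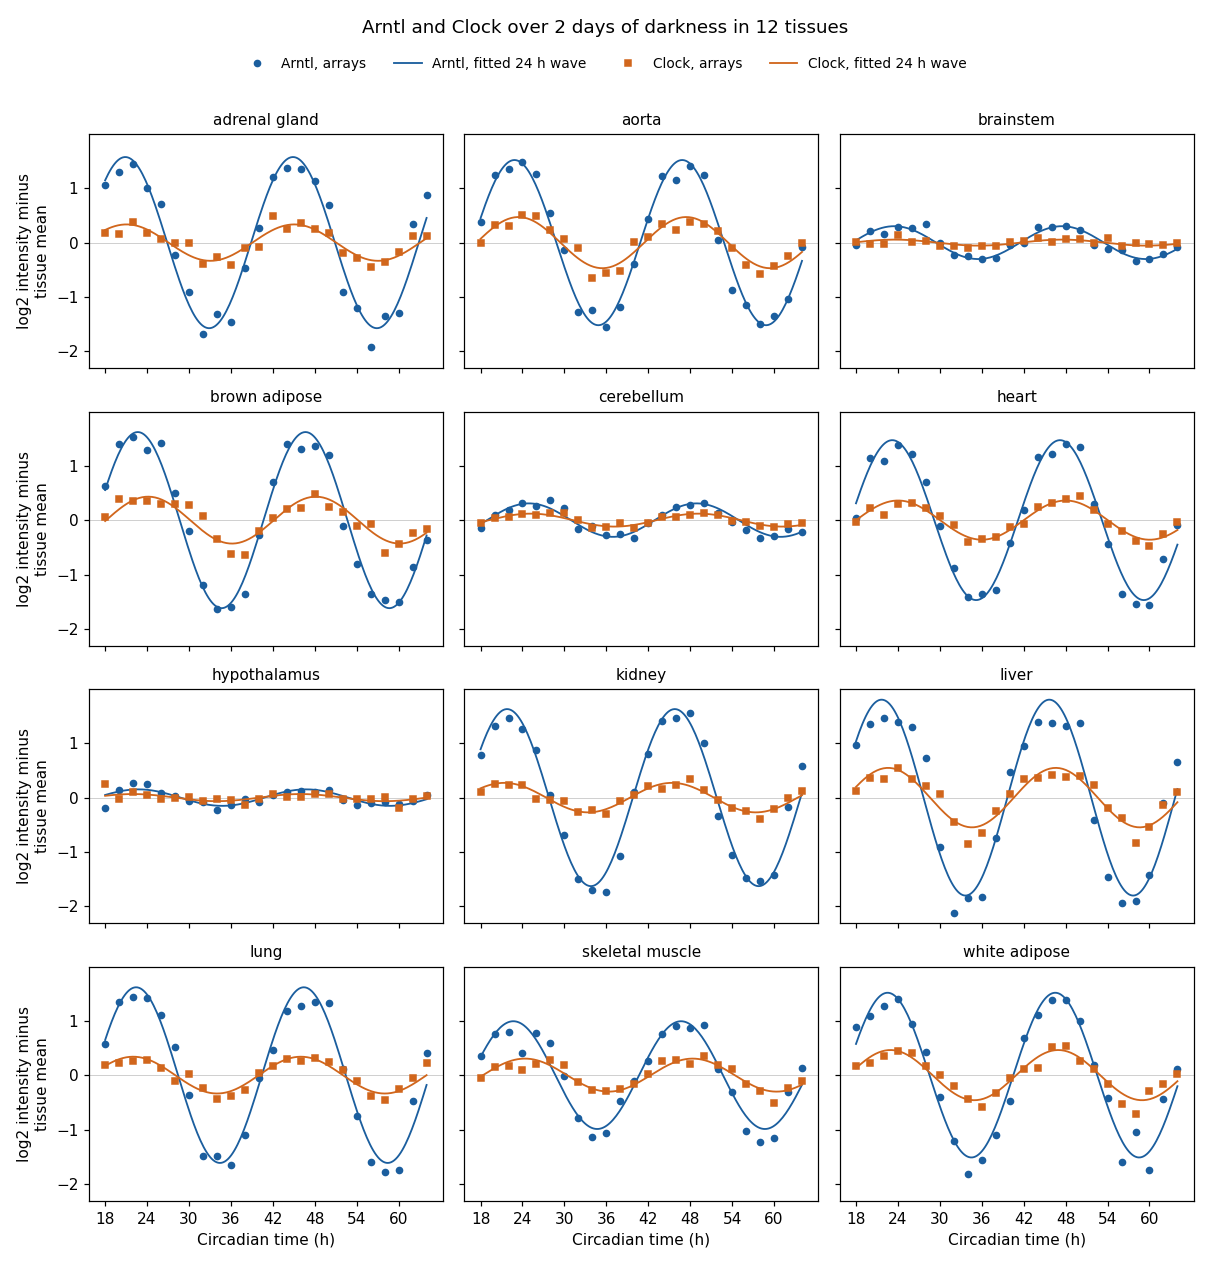
Each panel is 1 tissue and plots the log2 intensity of Arntl (circles) and Clock (squares) minus its own mean over the tissue's 24 arrays against circadian time in hours, with the fitted 24 h waves as lines. The Arntl wave is the larger of the pair in every panel, and both are nearly flat in hypothalamus, where Arntl spans 1.41-fold from its lowest to its highest array.

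Liver had the largest Arntl wave. On the log2 intensity scale the 24 liver arrays ran from 5.90 at CT32 through a median of 8.59 to 9.47 at CT22. The values stayed between 9.32 and 9.47 from CT20 to CT26 and had fallen to 7.11 by CT30, so the drop took up a few hours while the high values lasted longer. The fitted fold was 12.1 (95% interval 8.92 to 16.5, adjusted p = 5.72e-11).

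Kidney, brown adipose, lung and adrenal gland followed with waves of like size. Kidney Arntl ran from 5.67 at CT36 through a median of 7.47 to 8.96 at CT48, a fitted fold of 9.54 (8.01 to 11.4, adjusted p = 5.78e-16). In brown adipose the arrays lay between 5.58 at CT34 and 8.74 at CT22 with a median of 7.07, and the fold was 9.43 (8.01 to 11.1). In both tissues the 8 arrays within CT20 to CT2 of either day all exceeded the 8 arrays within CT8 to CT14. With the mean of the skeletal muscle markers in the fit, the brown adipose fold was 10.1 (adjusted p = 1.31e-14).

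In lung the lowest array was 5.59 at CT58, the median 7.64 and the highest 8.81 at CT22, which fitted to a fold of 9.37 (7.71 to 11.4). Adrenal gland ran from 5.84 at CT56 through 8.05 to 9.19 at CT22, with a fold of 8.85 (7.06 to 11.1). Arntl was earliest in this tissue, already at 8.80 by CT18. With the hepatocyte marker mean in the fit, an alternative added after its spread was seen, the fold was 8.86 and the peak CT20.9, as without it.

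Aorta, white adipose and heart completed the group of large waves. Aortic Arntl had its lowest array at 5.56 (CT36), its median at 7.09 and its highest at 8.59 (CT24), a fold of 8.20 (7.01 to 9.60). In white adipose the range was 5.70 at CT34 to 8.91 at CT24 with a median of 7.66, a fold of 8.15 (6.67 to 9.96). Heart ran from 5.80 at CT60 through 7.33 to 8.76 at CT48, a fold of 7.67 (6.51 to 9.03). The aortic wave showed the widest gap between windows: the lowest array of the high hours was 2.19 log2 units above the highest array of the low hours. With the skeletal muscle marker mean in the fit the aortic fold was 8.53. With the hepatocyte marker mean in the fit it was 8.11 in aorta, 7.67 in white adipose and 7.49 in heart. Without the arrays that stand apart the Arntl fold was 8.28 in aorta, 9.06 in white adipose and 7.59 in heart.

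Skeletal muscle stood between the other peripheral tissues and the brain. Its Arntl arrays ran from 7.10 at CT58 through a median of 8.46 to 9.26 at CT50. Its lowest deposited value was above the lowest of each of the 8 tissues above, while its highest was within their range. The fold was 3.95 (3.30 to 4.72, adjusted p = 2.47e-10). At CT24, an array that stands apart, Arntl was 8.74, below its neighbours at 9.13 and 9.11. The fold was 4.93 without the 6 arrays that stand apart and 5.23 with the lymphocyte marker mean in the fit. Any further part of admixed RNA in this value was not tested.

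The brain tissues had small Arntl waves. Cerebellum ran from 8.18 at CT58 through 8.46 to 8.88 at CT28, and its fold was 1.53 (1.44 to 1.63, adjusted p = 5.73e-10). Brainstem ran from 6.997 at CT58 through 7.30 to 7.69 at CT28, where the fold was 1.52 (1.42 to 1.63, adjusted p = 4.16e-09). In hypothalamus the lowest array was 7.65 at CT34, the median 7.84 and the highest 8.14 at CT22, a fold of 1.23 (1.16 to 1.32, adjusted p = 0.00145). The high and low windows did not overlap in any of these, although the gap in hypothalamus was 0.123 log2 units. Without the 2 hypothalamic arrays that stand apart (CT18 and CT36) the adjusted p there was 3.80e-05.

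Across all tissues the 8 arrays of the high window lay above the 8 of the low window for Arntl in 12 of 12 tissues. Among all genes this pattern was met by 0.171% in hypothalamus and by 3.44% in liver, the lowest and the highest share of any tissue. These shares leave out genes with an equally clear wave that peaks at other hours, since the windows lie near the peak and trough of Arntl. The windows overlapped in 4 tissues for Clock, namely adrenal gland, brainstem, hypothalamus and kidney, and did not in the other 8. Their hours are fixed, so a clear wave with an early peak can also overlap. Adrenal gland and kidney had the earliest Clock peaks and passed the 24 h limma test (adjusted p = 3.73e-06 and 2.19e-10). In brainstem and hypothalamus the folds were only 1.08 and 1.10.

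Few genes of the array had larger waves than Arntl. In adrenal gland none of the 19938 fitted folds was larger. In kidney only Dbp was, an output transcription factor of the clock, at 12.1. In aorta, liver and lung 2 genes exceeded it, Nr1d1 and Dbp, and in heart the 2 were Ciart, a repressor of the CLOCK and BMAL1 pair, and Dbp. The number was 8 in brown adipose, 12 in cerebellum and in skeletal muscle, 24 in white adipose, 29 in brainstem and 264 in hypothalamus. Not all of these genes passed the test. In brown adipose they included Nr1d1 and the skeletal muscle markers Pvalb and Neb. In skeletal muscle they included Ciart and the lymphocyte markers Cd79b and Ms4a1, and in brainstem Dbp and the cerebellar markers Gabra6, Cbln3 and Neurod1. In white adipose the largest fold, of Gpx5 (54.5), did not pass. How far admixed RNA adds to these counts was not tested. The median fold over all genes was between 1.04 and 1.09.

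Clock cycled close in time to Arntl and over a smaller range. Its wave passed in 11 of 12 tissues, against the shares of all genes given above, and hypothalamus was the exception. The largest fold was 2.13 in liver, and the 8 other peripheral tissues lay between 1.46 and 1.92. In the brain the folds were 1.18 or less.

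In liver the Clock arrays ran from 9.46 at CT34 through a median of 10.44 to 10.86 at CT24 (log2 intensity), a fold of 2.13 (95% interval 1.88 to 2.42, adjusted p = 4.05e-09). In aorta they ran from 8.69 at CT34 through 9.38 to 9.84 at CT24, a fold of 1.92 (1.73 to 2.13). White adipose gave 8.85 at CT58, a median of 9.62 and 10.10 at CT48, a fold of 1.90 (1.71 to 2.10). In these 3 tissues the high and low windows were separated by at least 0.295 log2 units.

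The next folds were 1.82 (1.62 to 2.04) in brown adipose, 1.65 (1.54 to 1.77) in heart, 1.60 (1.48 to 1.72) in lung and 1.59 (1.44 to 1.76) in adrenal gland. Skeletal muscle Clock ran from 8.97 at CT60 through 9.55 to 9.84 at CT50, a fold of 1.52 (1.41 to 1.65). Kidney ran from 9.34 at CT58 through 9.71 to 10.07 at CT48, a fold of 1.46 (1.38 to 1.54). The Clock wave of skeletal muscle was thus within the range of the other peripheral tissues, with an interval below those of liver, aorta and white adipose. Its Arntl wave was the smallest outside the brain. The muscle fold was 1.56 both without the arrays that stand apart and with the lymphocyte marker mean in the fit. With the skeletal muscle marker mean the Clock fold was 1.96 in aorta, 1.90 in white adipose and 1.74 in brown adipose. With the hepatocyte marker mean it was 1.93 in aorta, 1.77 in white adipose, 1.63 in heart and 1.61 in adrenal gland.

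In cerebellum Clock ran from 9.71 at CT40 through 9.84 to 9.99 at CT50, a fold of 1.18 (1.14 to 1.22, adjusted p = 2.44e-06). Brainstem Clock ran from 9.51 at CT34 through 9.60 to 9.75 at CT24, a fold of 1.08 (1.04 to 1.12, adjusted p = 0.0460). This call was lost under 4 of the alternatives, with adjusted p between 0.0514 and 0.0917. Hypothalamic Clock ran from 9.33 at CT60 through 9.51 to 9.78 at CT18, a fold of 1.10 (1.03 to 1.16, adjusted p = 0.194). The CT18 array is 1 of the 2 that stand apart there, and without both the adjusted p was 0.104.

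**Figure D2:**
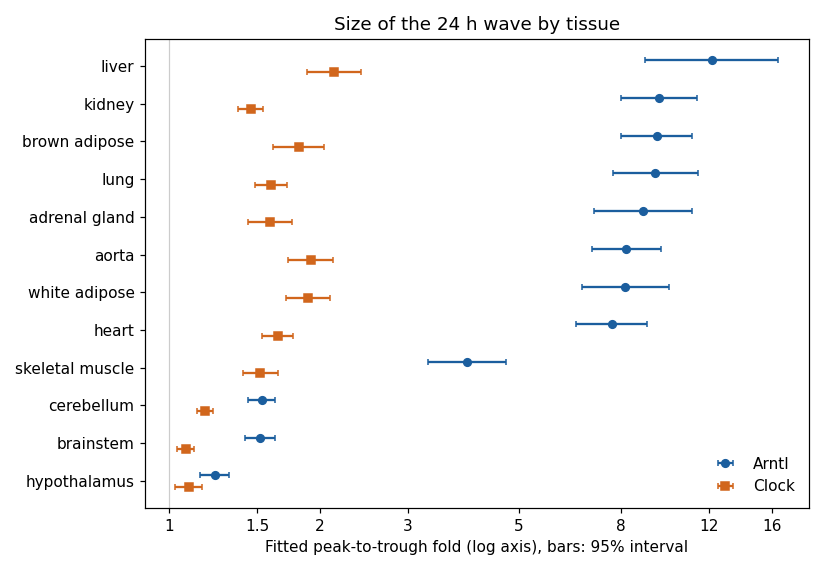
Fitted peak-to-trough fold of the 24 h wave (log axis) for Arntl (circles) and Clock (squares) in each of 12 tissues, ordered by Arntl, with 95% intervals from 24 arrays. Arntl falls from 12.1 in liver to 1.23 in hypothalamus with a step at skeletal muscle, and Clock stays at 2.13 or below.

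Wave sizes of neighbouring tissues often did not differ beyond their intervals. In the order of Arntl amplitude, 3 of 11 neighbours did, and these were heart over skeletal muscle, skeletal muscle over cerebellum, and brainstem over hypothalamus. For Clock 2 of 11 did, kidney over cerebellum and cerebellum over hypothalamus. The amplitude, which is the log2 distance from the mean to the peak, was larger for Arntl than for Clock in 12 of 12 tissues, with a 95% interval of the difference above 0 in each. The ratio of the amplitudes was lowest in hypothalamus (2.31), had a median of 3.52 and was highest in kidney (6.0). How far the response of each probe set to its transcript, or background under the low Arntl values, adds to this ratio was not tested.

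Over the 12 tissues the amplitudes of both genes had a Pearson r of 0.898 and a Spearman rho of 0.643. All values went through the same processing, and the 3 brain tissues lie apart from the rest at low amplitudes of both. Over the 9 tissues outside the brain r was 0.459 and rho 0.167. Kidney shows this, with the second largest Arntl wave and the smallest Clock wave outside the brain.

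Levels of each gene are given as a description, since the deposited values may have been normalized for each tissue on its own. Mean log2 intensity of Arntl over 24 arrays was highest in cerebellum at 8.51 ± 0.236 (SD) and next in skeletal muscle at 8.33 ± 0.750 and liver at 8.02 ± 1.36. It was lowest in brown adipose at 7.22 ± 1.19 and aorta at 7.11 ± 1.11. None of the 11 neighbours in this order differed by more than their spread, most of which is the wave itself. Clock was highest in liver at 10.32 ± 0.423 and next in cerebellum at 9.86 ± 0.0950, the only step of 11 that exceeded the spread, and was lowest in aorta at 9.34 ± 0.361.

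The fitted peaks of both genes fell within about 4 h of each other across tissues. For Arntl the mean peak was CT22.65, and the span from the earliest tissue, adrenal gland, to the latest, cerebellum, was 4.04 h. For Clock, hypothalamus included, the mean was CT23.06 and the span 4.12 h, between the same tissues.

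In adrenal gland Arntl peaked at CT20.9 (SE 0.192 h), followed by liver at CT21.7 (0.229 h) and kidney at CT21.8 (0.145 h). Lung, white adipose, brown adipose, skeletal muscle, hypothalamus and aorta lay between CT22.4 and CT22.9. Heart was at CT23.2 (0.149 h), brainstem at CT23.5 (0.304 h) and cerebellum at CT0.922 (0.278 h). Adjacent tissues differed beyond their interval at 3 of 11 steps, from adrenal gland to liver (0.780 h), from kidney to lung (0.636 h) and from brainstem to cerebellum (1.45 h).

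Clock began at CT21.1 (SE 0.400 h) in adrenal gland and CT21.4 (0.280 h) in kidney. It lay between CT22.0 and CT23.6 in lung, liver, white adipose, aorta and brainstem. Heart (CT0.0217), brown adipose (CT0.152), skeletal muscle (CT0.351) and cerebellum (CT1.19) were the late tissues. The larger errors of this smaller wave left 0 of 11 neighbours beyond their interval.

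**Figure D3:**
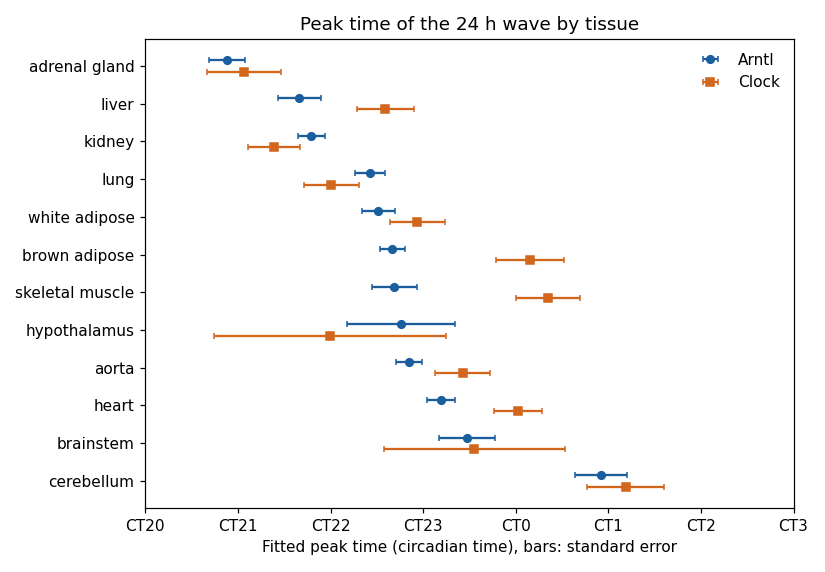
Fitted peak time of the 24 h wave on a circadian time axis (CT, h) for Arntl (circles) and Clock (squares) in 12 tissues ordered by Arntl, with standard errors as bars. Adrenal gland is earliest and cerebellum latest for both genes, and Clock is later by more than 1 h in brown adipose and skeletal muscle. The wave of Clock did not pass the test in hypothalamus, where its bar is widest.

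Clock peaked with or shortly after Arntl. The difference of the peaks had a 95% interval above 0 in 4 tissues, an interval that included 0 in 8, and in none an interval below 0. Skeletal muscle had the longest delay at 1.66 h (1.12 to 2.21 h), then brown adipose at 1.48 h (0.753 to 2.21 h). Neither delay was fitted with a marker mean. Liver followed at 0.929 h (0.309 to 1.55 h) and heart at 0.831 h (0.452 to 1.21 h). Hypothalamus, kidney and lung had Clock ahead by point estimate. In kidney and lung the differences were -0.406 h (-0.950 to 0.137 h) and -0.420 h (-0.975 to 0.136 h). The interval was wide in hypothalamus (-0.768 h, -3.97 to 2.43 h). The median over 12 tissues was 0.343 h, and 0.525 h without the arrays that stand apart, and 9 of them had Clock later. Deviations of both genes from their waves moved together on the same arrays in most tissues, with residual correlations from -0.46 in hypothalamus to 0.74 in heart, and the intervals take this into account.

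Most of the variance of Arntl lay in a plain 24 h wave, and less of that of Clock in the brain. The 24 h wave alone held a median of 94.8% of the variance of Arntl and 86.3% of that of Clock over the tissues. The lowest shares were those of Clock in hypothalamus (32.3%) and brainstem (44.6%) and of Arntl in hypothalamus (69.55%). Adding 12 h and 8 h terms, the fitted rise lasted longer than the fall in 11 of 12 tissues for Arntl (median 12.95 h against 11.05 h) and in 10 for Clock (12.92 h against 11.08 h). The most uneven among the called waves were those of cerebellum, where Arntl rose for 15.5 h and fell for 8.5 h and Clock for 16.55 h and 7.45 h, of Clock in skeletal muscle (16.4 h and 7.6 h) and of Arntl in liver (15.1 h and 8.9 h). No interval was computed for these times. A 12 h component passed the test for Arntl in liver and skeletal muscle and for Clock in liver. In cerebellum it passed for neither gene (adjusted p = 0.999 for both). Of all genes that test called 6.99% in skeletal muscle, 4.83% in brown adipose, 0.326% in liver, 0.0602% in lung, 0.00502% in each of brainstem, heart and kidney, and 0% in the other 5 tissues.

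The 12 h component of Arntl in liver measured 1.74-fold (1.40 to 2.16, adjusted p = 0.0483). It flattened the top and sharpened the trough. Liver Arntl stayed above the midpoint of its range for 14.3 h of the cycle, and liver Clock, whose 12 h fold was 1.27 (1.19 to 1.37, adjusted p = 0.00480), for 16.45 h. The first peak of the liver 12 h term was at CT2.88 for Arntl and CT4.10 for Clock. The Arntl call in liver was lost under 5 alternatives, with adjusted p of 0.0561 without the trend, 0.0716 with a straight line in the fit, 0.0747 after centring the arrays, 0.110 over all probe sets and 0.740 with normal scores, under which the Clock call was lost too (0.834).

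In skeletal muscle the 12 h fold of Arntl was 1.35 (1.18 to 1.55, adjusted p = 0.0268), and 15.1 h of the cycle were above the midpoint. Without the arrays that stand apart, and so with fewer arrays, the fold was 1.42 and the adjusted p 0.363, and with normal scores the adjusted p was 0.374. The 12 h fold of Clock there was 1.11 (1.04 to 1.19, adjusted p = 0.0771).

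By point estimate the Arntl peak was earlier on the second day in every tissue. Fitted for the days separately, CT18 to CT40 and CT42 to CT64, the peak moved by a median of -0.784 h (second minus first), from -1.73 h in hypothalamus to -0.516 h in white adipose, and 7 of 12 intervals lay below 0. Cerebellum moved by -1.58 h (-2.57 to -0.587 h), adrenal gland by -0.985 h (-1.74 to -0.234 h) and heart by -0.816 h (-1.43 to -0.205 h). Clock was earlier in 10 of 12 tissues with a median of -0.834 h, and 1 interval lay below 0, that of adrenal gland (-2.01 h, -3.40 to -0.614 h).

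**Figure D4:**
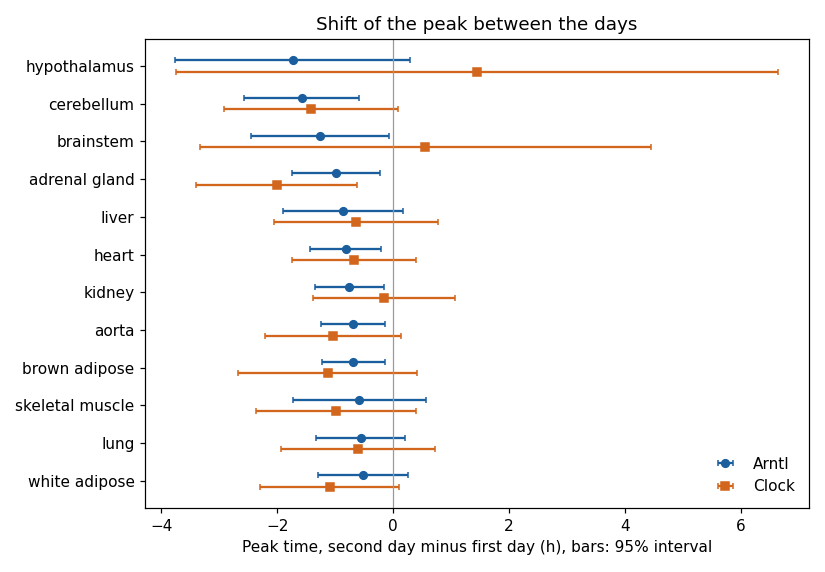
Peak time on the second day minus that on the first (h) for Arntl (circles) and Clock (squares) in 12 tissues, with 95% intervals. All 12 Arntl points lie left of 0, between -1.73 h and -0.516 h, and the intervals of Clock are wider.

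Tested across all genes with limma, the change of the wave between days passed for neither gene in any tissue, with the lowest adjusted p at 0.433 for Arntl and 0.580 for Clock. The test called 0% of all genes in each of the 12 tissues. The unadjusted p was under 0.05 in 6 tissues for Arntl and in 1 for Clock. The size of the wave was smaller on the second day in 8 tissues for Arntl and 6 for Clock. Levels between days passed in 0 tissues for either gene, with 0 unadjusted p under 0.05, while the test called 1.91% of all genes as higher and 3.08% as lower in kidney, 0.0451% and 2.07% in skeletal muscle, and 0.0502% as higher in brainstem.

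Letting the period vary from 20 to 28 h, a fit added after the data were seen, placed the best period of Arntl at a median of 23.2 h. The estimate was below 24 h in 12 of 12 tissues and its 95% interval was below 24 h in 9, with the lowest estimate in hypothalamus (22.3 h, 21.15 to 23.7 h) and the highest in brown and white adipose (23.65 h). For Clock the median was 23.2 h, 11 estimates were below 24 h and 5 intervals were. In brainstem and hypothalamus the intervals of Clock reached the edge of the range tried, so its period was not resolved there. The tissues may come from the same animals, which the sources used here do not state, so the 12 estimates need not be independent.

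Both genes' waves differed between tissues. The test of 22 tissue-by-wave terms over 288 arrays gave an adjusted p of 3.17e-74 for Arntl and 1.34e-38 for Clock, and 49.6% of all genes passed it. Of 66 tissue pairs, 52 differed for Arntl and 52 for Clock, while 9.46% of all tests of genes and pairs passed. The same 46 pairs differed for both genes, 6 for Arntl alone, 6 for Clock alone and 8 for neither.

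For Arntl, adrenal gland and skeletal muscle differed from all 11 other tissues. The 14 pairs that did not pass included the 3 pairs among brain tissues, 9 of the 10 pairs among aorta, brown adipose, heart, lung and white adipose, and kidney with liver (adjusted p = 0.485) and with lung (0.129). The aorta arrays carried markers of brown adipocytes, adipocytes and cardiomyocytes, and the part of such shared tissue in the aorta pairs was not tested. Heart and skeletal muscle, both striated muscle, passed for Arntl (adjusted p = 6.02e-05) and not for Clock (0.708). Adrenal gland and kidney did not pass for Clock (0.657), nor did liver and white adipose (0.344). The spread in this test is shared by all tissues, and brainstem and hypothalamus, whose Arntl amplitudes differed beyond their own intervals, gave an adjusted p of 0.625.

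The receptors that act on Arntl through ROR elements were led by the REV-ERB genes. Nr1d1 and Nr1d2 passed the 24 h test in 12 of 12 tissues, Rora in 3 and Rorb in 0. Nr1d1 peaked a mean of 8.45 h after Arntl in the same tissue, with folds from 1.67 in hypothalamus to 21.97 in lung. Nr1d2 peaked 11.4 h after it, with folds from 1.18 to 6.71. Both repressors thus peaked on the falling or low part of the Arntl wave. The Arntl amplitude over the 12 tissues had a Pearson r of 0.940 with that of Nr1d1 (0.746 without the brain). The largest Rora fold was 1.29 in lung, where its peak was at CT13.6.

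Genes with E-boxes that BMAL1 and CLOCK are known to act on mostly peaked 6 h or more away from Arntl. All 14 on the list were measured. In 156 of 168 gene and tissue pairs the 24 h wave passed, from 8 genes in hypothalamus to 14 in 7 tissues. Of all genes, 1.8% passed in hypothalamus and at most 26.8%, in liver. In 146 of the 156 the peak was 6 h or more away from that of Arntl. The exceptions were Cry1 in 9 tissues and Nr1d1 in 1. The share of all passing genes that peaked so far from Arntl was not computed. The median fold of the list was between 1.18 and 4.06 in single tissues, where that of all genes was between 1.04 and 1.09. The list holds known clock genes, so its count is no independent evidence.

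The order of the targets after Arntl began with Nr1d1. Bhlhe41, a repressor of E-box transcription, followed at 10.9 h, Dbp at 11.1 h, Ciart at 11.2 h and Per1, the period gene with the earliest peak, at 11.7 h. Bhlhe40, related to Bhlhe41, came at 11.54 h in the 7 tissues in which it passed, the fewest of the list. Tef and Hlf, relatives of Dbp, came at 12.6 h and 13.3 h, Per3 at 12.7 h and Cry2 at 13.6 h. Per2 (14.4 h) and the cell cycle kinase gene Wee1 (14.9 h) came later, and the repressor Cry1 last, at 18.8 h. Cry1 carries both E-boxes and ROR elements, and its mean peak of CT17.4 lies between the E-box group and Arntl. Among them Dbp reached a fold of 14.8 in lung, Per2 4.40 in liver and Cry1 3.72 in liver.

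**Figure D5:**
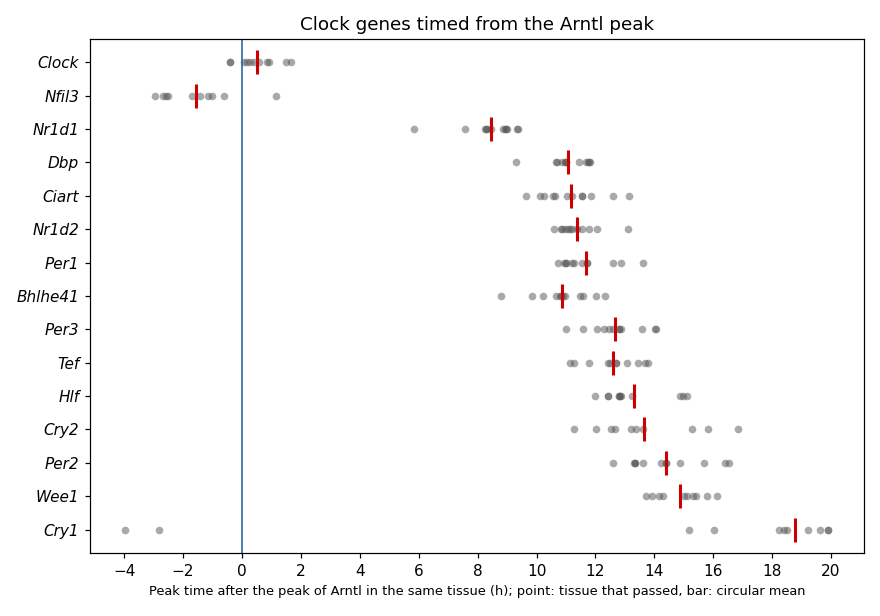
Peak time of clock genes after the Arntl peak of the same tissue (h), 1 grey point per tissue in which the gene passed the 24 h test, with the circular mean as a red bar. Clock lies at a mean of 0.509 h and Nfil3 before Arntl, Nr1d1 leads the E-box genes at 8.45 h and Cry1 closes the cycle at 18.8 h. Times are counted from -4 h to 20 h, so the Cry1 points of 2 tissues, adrenal gland and liver, stand at the left end and belong to the same cluster as the others. Bhlhe40 is not drawn.

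Genes known to carry ROR elements mostly peaked within 6 h of Arntl where they passed. Of 8 listed, Arntl and Clock among them, 5 were measured. Leaving out both members, whose own calls say nothing here, the 24 h wave of the other 3 passed in 22 of 36 gene and tissue pairs, against shares of 1.8% to 26.8% of all genes in single tissues. In 20 of the 22 the peak was within 6 h of Arntl, before or after it. Nfil3 gave 10 of these, Cry1 9 and E2f8 1, and Cry1 peaked a mean of 5.21 h before Arntl. The share of all passing genes that peaked within 6 h of Arntl was not computed. Nfil3, a repressor at D-boxes, passed in 10 tissues with folds up to 4.09 in liver and a mean peak at CT21.0, and E2f8, a cell cycle repressor, in liver alone (1.73). Npas2, the paralog of Clock, is not analysed here. Arntl2, the paralog of Arntl (probe set 10542764, chromosome 6 from 146794729 to 146833529), passed in 0 of 12 tissues, with folds between 1.02 and 1.12. Its wave did not pass the test between tissues (adjusted p = 0.0902).

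Genes whose products modify BMAL1, CLOCK or their partners varied in how widely they cycled. Of 12 listed 10 were measured, and 42 of 120 gene and tissue pairs passed. They numbered 1 gene in each of cerebellum (5.49% of all genes), hypothalamus (1.8%) and skeletal muscle (5.12%), and at most 7, in lung (20.9%). Usp2, a deubiquitinase, passed in 12 tissues with folds up to 5.90 in liver, a mean of 13.3 h after Arntl. Nampt, the rate-limiting enzyme of NAD salvage that feeds the deacetylase SIRT1, passed in 8 tissues with folds up to 2.44 in liver, while Sirt1 itself passed in lung alone (1.19). Cipc, an inhibitor of CLOCK, passed in 6, and the acetyltransferase genes Ep300, Crebbp and Kat2b in 3, 1 and 2.

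The genes most like each member over all 288 arrays, after each tissue's mean was removed, were largely the same. For Arntl the highest Pearson correlation was with Clock (0.902), then Dtx4 (0.882), Leo1 (0.879), Dapk1 (0.791), Nfil3 (0.785) and Ypel2 (0.768). For Clock the order was Arntl, Dtx4 (0.845), Leo1 (0.809), Dapk1 (0.808), Grk5 (0.774) and Gramd4 (0.742). Dtx4, of the Deltex ubiquitin ligase family, and Leo1, a subunit of the PAF1 elongation complex, passed the 24 h test in 11 and 10 tissues with largest folds of 3.50 in white adipose and 1.64 in liver. These correlations describe arrays that share time points, and large waves weigh most in them. With each tissue also scaled to the same spread, Dtx4 was first for Arntl (0.861) and Clock second (0.847).

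The most opposite profiles were led by Dbp for Arntl and by Tef for Clock. Against Arntl these were Dbp (-0.942), Per3 (-0.905), Tef (-0.902) and Nr1d2 (-0.882), and against Clock Tef (-0.855), Per3 (-0.854), Dbp (-0.831) and Ciart (-0.776). The Arntl amplitude over 12 tissues had a Pearson r of 0.968 with that of Dbp (0.852 over the 9 tissues outside the brain) and of 0.975 with that of Per3 (0.816). With Per1 it was 0.853, and -0.271 without the brain. No interval was computed for r over these 9 tissues, so the sign for Per1 is not resolved. Without the brain r was also low with Ciart (0.0158) and Nfil3 (0.191). The Spearman rho over the same tissues was 0.2 with Ciart and 0.667 with Nfil3, so for Nfil3 the measures differ.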

How the data were processed

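Values are the authors' deposited intensities on a linear scale, 1 per probe set and array, from 6.9 to 45307.8, made with Affymetrix Expression Console and GCRMA per the submitters' processing notes, which give no version or order. Array medians were 95.2 to 106.6. Whether tissues were normalized together is not given in the sources used here, so waves were fitted within tissues. The design had assumed log2 values; log2 was taken here with no pseudocount. Of 35556 probe sets, 21789 carried 1 symbol, and the one with the highest mean stood for a gene (19938 genes). No low-intensity filter was applied. limma 3.58.1 in R 4.3.3 tested cosine and sine of 24 h with the moderated F test (trend), Benjamini-Hochberg adjusted over all genes of a tissue. The 12 h test also held 24 h and 8 h terms. Pairs of tissues were adjusted over all genes and pairs together. Intervals are 95%, by the delta method for peak times. An array stood apart when one of its marker means differed from the median of its tissue by over 1 log2 unit and over 5 scaled median absolute deviations, or when its median correlation was lower than usual by over 0.003 and 5 such deviations. The scripts were tested on simulated data. Named genes are the members, the listed pathway genes, and the 6 most like and 4 most opposite genes. Members and lists were chosen with earlier results of these data known. Alternatives changed the trend, scale, filter, covariates, arrays and probe sets.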

Additional observations from a re-analysis of the deposited data

Results flagged for a closer look

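Differences between tissues in the 24 h wave of both genes were large against the spread of the arrays. The test over 12 tissues gave an adjusted p of 3.17e-74 for Arntl and 1.34e-38 for Clock (limma, 288 arrays). Of 66 tissue pairs, 52 differed for Arntl and 52 for Clock, with 46 in common.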

How the results depend on the processing

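The count of tissues with a 24 h wave stayed at 12 for Arntl in all alternatives run, and for Clock it was 11 or, where brainstem was lost, 10. Brainstem Clock had an adjusted p of 0.0917 without the trend, 0.0514 with normal scores, 0.0733 after centring arrays and 0.0770 over all probe sets. The 12 h count for Arntl was 1 without the trend, with a straight line, after centring, without arrays that stand apart and over all probe sets, and 0 with normal scores. For Clock it was 0 with normal scores and 2 after centring. With normal scores the tissue pairs that differed numbered 13 for Arntl and 11 for Clock, where ranking within a tissue removes differences of size by its construction. With the time point as a random block (consensus correlation 0.0225), chosen because tissues share times, both counts were 52. The alternative of each other probe set of a symbol was not run, as each gene had 1. The median delay of Clock was 0.525 h without the arrays that stand apart, against 0.343 h. The 24 h counts with marker means in the fit, the hepatocyte one chosen after seeing the data, were 12 and 11. One pooled array per time limits precision.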
